A study of Mus musculus with 2 samples.

Results

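The miR-143 and miR-145 group described here holds the 5 mature entries of hairpins miR-143, miR-145a and miR-145b, every arm that the deposited table lists: mmu-miR-143-3p, mmu-miR-143-5p, mmu-miR-145a-5p, mmu-miR-145a-3p and mmu-miR-145b (the prefix mmu, for mouse, is left out below). They were picked out by hairpin name and are 5 of the 1147 entries on the table, of which 1080 are mature miRNAs. Small RNAs were sequenced from the tunica muscularis, the muscle wall peeled from the mucosa, of the jejunum of mice 15 days old on a C57BL/6 background. Both groups carried the transgene Tg(Myh11-cre,-EGFP)2Mik, in which the *Myh11* promoter drives *Cre* and eGFP in smooth muscle cells (SMCs). In the *Dnmt1*-KO group *Dnmt1*lox/lox was deleted in those cells, and cells that do not use the promoter kept the gene. The *Dnmt1*-WT group was, per the study's text, smMHC Cre-eGFP/+ with intact *Dnmt1*, although the strain label of both samples reads Dnmt1lox/lox and a free-text label of the WT sample gives the mutant genotype. Groups follow the genotype label, and the deletion itself was not checked here, since small RNAs were read. Each genotype had 1 library, so the spread between animals is unknown and no test was run. The study lists males and females for both genotypes and does not say whether their RNA was pooled.

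miR-143 and miR-145 are cut from a shared primary transcript that serum response factor (SRF) and its partner myocardin activate, and they are the hallmark miRNAs of the contractile SMC. Their known targets include *Klf4* and *Elk1*, regulators that favour growth over contraction, and mice without the cluster have thin, less contractile arteries. Drosha and Dicer cut each hairpin into a 5p and a 3p arm. Usually 1 arm (the main arm) is loaded into Argonaute, whereas the other (the minor arm) is mostly degraded.

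On GRCm38, the genes of miR-143 (chr18:61649196-61649258) and miR-145a (chr18:61647825-61647894) both lie on the minus strand with 1301 bases between them. The long noncoding RNA gene *Carmn*, also called *Mir143hg*, spans both hairpins in RefSeq (chr18:61645878-61665538). In GENCODE M21 it ends sooner, with 366 bases between it and the miR-143 hairpin. The *Mir145b* gene is not part of that cluster. It lies on the same chromosome and strand (chr18:69022199-69022273) with 7.37 Mb between it and *Mir143*, in no other GENCODE gene and within the RefSeq noncoding gene *Gm31088*. The name "cluster" thus fits 4 of the 5 entries by position, and miR-145b is described apart from them.

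The deposited values are read numbers multiplied by a factor close to 1 per library, so that 1 unit is about 1 read. Their totals were 5741906 (*Dnmt1*-WT) and 4754677 (*Dnmt1*-KO) and had not been made equal, so ratios between libraries depend on scaling. The 95% intervals given below cover counting error only and treat each read as an independent count. Reads carried no molecular identifiers and are not counts of separate molecules, so the intervals may be too narrow even for that error. In bulk tissue, fewer cells of a type cannot be told apart from less RNA per cell.

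The 4 entries of the clustered hairpins were all lower in *Dnmt1*-KO, the minor arms by more than the main arms. The 5 members together took 36.2% of the *Dnmt1*-WT reads (95% Wilson interval 36.19 to 36.27%) and 29.6% of the *Dnmt1*-KO reads (29.53 to 29.61%). Their sum was 2080102 in WT and 1406003 in KO, a KO/WT ratio of 0.676 (exact interval 0.674 to 0.677). The summed remainder of the table had a ratio of 0.914.

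miR-143-3p, the main arm of its hairpin, stood at 1777100 in *Dnmt1*-WT and 1232984 in *Dnmt1*-KO. It was the most abundant entry of both libraries. The next entry was miR-10a-5p, a Hox-cluster miRNA, in both libraries, at 372573 and 369224. The lead of miR-143-3p over it was thus 4.77-fold in WT and 3.34-fold in KO. As a share, miR-143-3p took 30.9% of WT reads (30.91 to 30.99%) and 25.9% of KO reads (25.89 to 25.97%). Its KO/WT ratio was 0.694 (0.692 to 0.695). Of the 5 members it is the entry that sets the sum, making up 85.4% of the group in WT and 87.7% in KO.

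miR-145a-5p, the main arm of the neighbouring hairpin, stood at 275275 in *Dnmt1*-WT and 164499 in *Dnmt1*-KO, a ratio of 0.598 (0.594 to 0.601). Its share of the reads was 4.79% (4.78 to 4.81%) in WT and 3.46% (3.44 to 3.48%) in KO. It held rank 5 in WT, between miR-26a-5p at 312086 and miR-181a-5p at 203962. In KO it held rank 6, between miR-127-3p at 216270 and let-7a-5p at 155631. It therefore stayed among the leading entries of both libraries while its level was lower.

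The minor arms were lower by a wider margin. miR-143-5p stood at 19250 in *Dnmt1*-WT and 4982 in *Dnmt1*-KO, a ratio of 0.259 (0.251 to 0.267), and moved from rank 37 to rank 62. miR-145a-3p stood at 8447 and 3488, a ratio of 0.413 (0.397 to 0.430), and moved from rank 51 to rank 77. These minor arms made up 1.33% of the group in WT and 0.602% in KO, so they barely touch its sum.

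**Figure D1:**
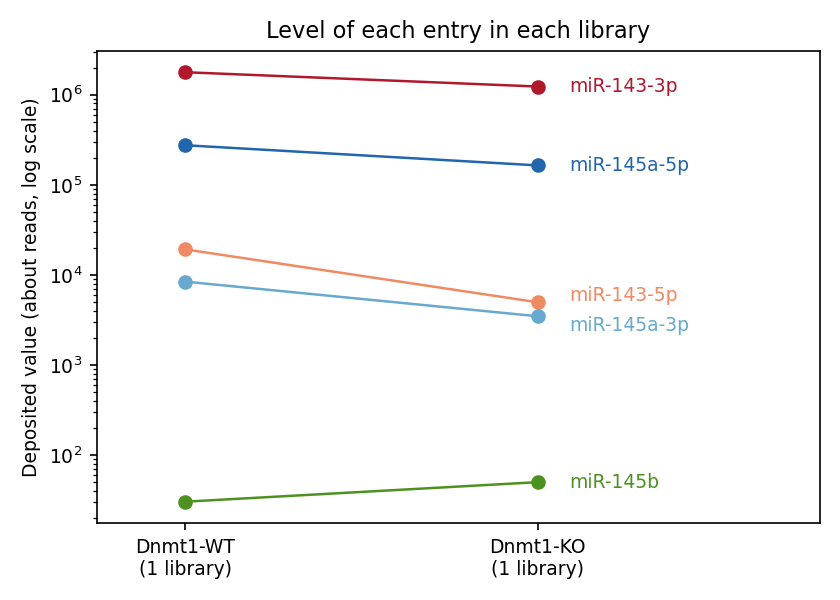
Deposited value of each of the 5 entries (vertical axis, log scale, about reads) in the *Dnmt1*-WT and the *Dnmt1*-KO library (1 library per genotype, no error bars). Lines join the values of 1 entry. The 4 entries of miR-143 and miR-145a are lower in KO, most steeply miR-143-5p (19250 and 4982), and miR-145b is higher (30.6 and 50.4).

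miR-145b went the other way at a level that is far lower. It stood at 30.6 in *Dnmt1*-WT and 50.4 in *Dnmt1*-KO, a ratio of 1.65 (1.03 to 2.64), at ranks 408 and 381. It took 0.000533% of the WT reads (0.000381 to 0.000769%) and 0.00106% of the KO reads (0.000814 to 0.00141%). Its values correspond to 30.5 and 50.5 reads, which are not whole numbers, whereas 89.1% of WT and 91.1% of KO values from 20 to 300 were whole (within 0.07 reads). A fractional value can result where a read is divided among entries that it matches equally well. The deposited table does not say whether entries shared reads, and miR-145b belongs by name to the family of miR-145a, which had 8996 units of its 5p arm for each unit of miR-145b in WT and 3264 in KO. Whether reads were shared between them was not tested, and the level of miR-145b is given as uncertain.

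To set the members beside the rest of the table, entries at least 2-fold lower in *Dnmt1*-KO were counted. Over all 1147 entries, 23.1% were at least 2-fold lower and 26.7% at least 2-fold higher, counts in which low entries weigh heavily. At a mean of both libraries of at least 1000, which the 4 clustered entries meet, 10 of 136 entries (7.35%) were at least 2-fold lower and 4.41% at least 2-fold higher. Both minor arms are among those 10, and neither main arm is. Of the 136, 58.8% were lower by any amount, as were all 4 clustered entries. The median KO/WT ratio of the 136 was 0.913, with the middle 50% of entries between 0.702 and 1.26. No entry of the 136 had a lower ratio than miR-143-5p, and 3 had a lower ratio than miR-145a-3p. For the main arms, 19 entries were lower than miR-145a-5p and 33 lower than miR-143-3p. At a mean of at least 10, which miR-145b also meets, 9.94% of 543 entries were at least 2-fold lower and 11.4% at least 2-fold higher, and miR-145b was neither.

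**Figure D2:**
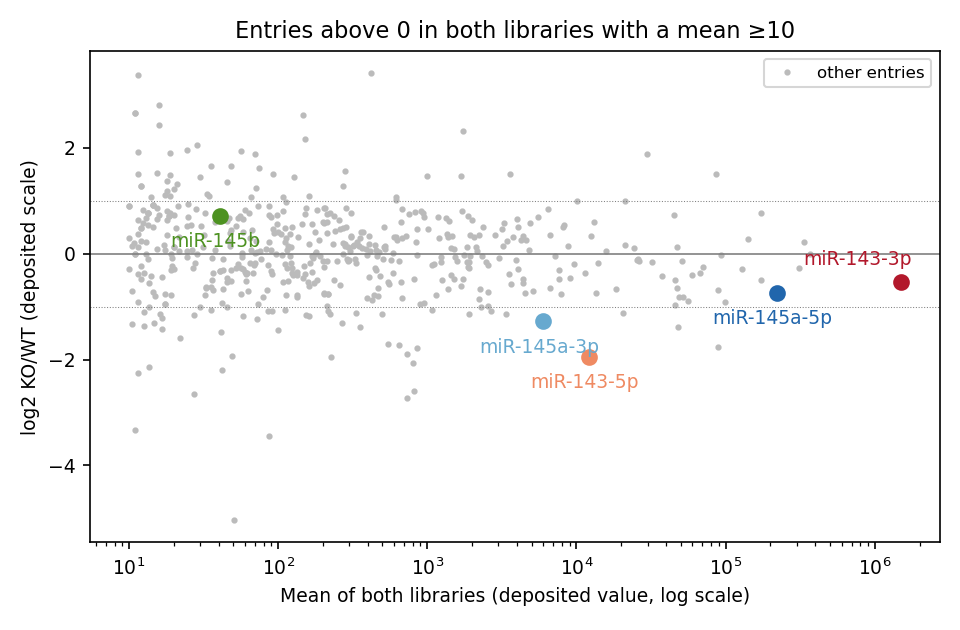
Log2 KO/WT on the deposited scale (vertical axis) against the mean of both libraries (horizontal axis, log scale) for the 531 entries detected in both that had a mean of at least 10; grey points are other entries, coloured points the 5 members, and dotted lines mark 2-fold. miR-143-3p stands alone at the right edge at -0.53, and miR-143-5p at -1.95 lies below every other entry with a mean of at least 1000.

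The direction of the 4 clustered entries did not depend on the scaling, but the size of the difference did. With equal library totals every ratio rose by a factor of 1.21, which gave 0.838 for miR-143-3p, 0.722 for miR-145a-5p, 0.313 for miR-143-5p and 0.499 for miR-145a-3p. Because miR-143-3p alone is a large part of each total, equal totals partly scale the group against itself. With totals made equal over all entries except the 5 members, the ratios were 0.759, 0.653, 0.283 and 0.452. In each of the 4 scalings the order from the lowest ratio was miR-143-5p, miR-145a-3p, miR-145a-5p and miR-143-3p, since a scaling moves all members alike, and the counting intervals of neighbours in that order did not overlap. miR-145b was above 1 in each scaling, up to 1.99 with equal totals.

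**Figure D3:**
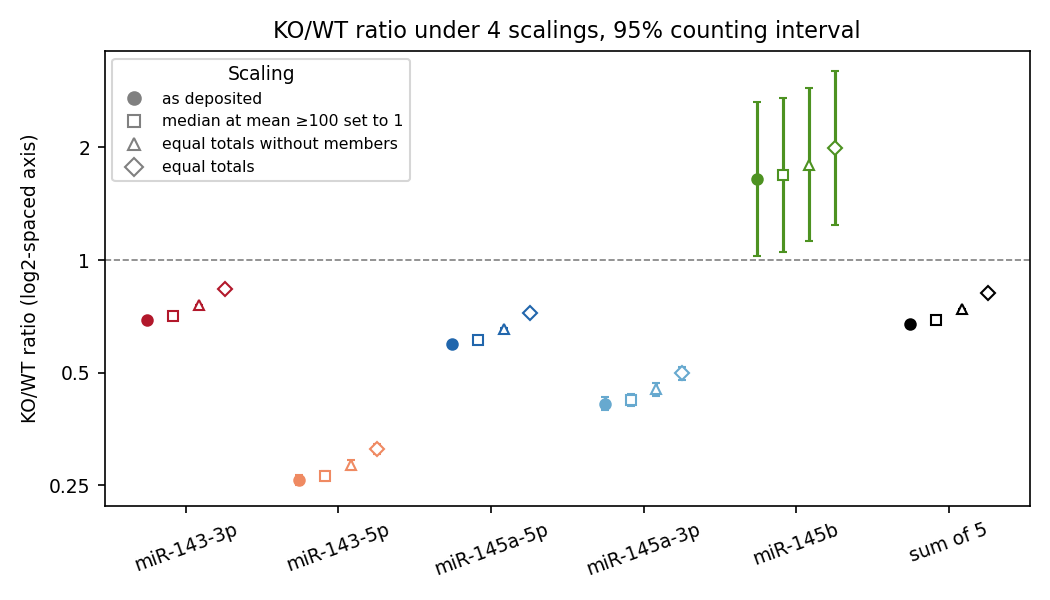
KO/WT ratio (vertical axis, spaced in log2) of each entry and of the sum of the 5, as deposited (filled circles) and under 3 other scalings (open symbols); bars are 95% counting intervals and the dashed line marks a ratio of 1. All clustered entries and the sum lie below 1 in each scaling, with miR-143-5p the lowest (0.259 to 0.313), and the wide bars of miR-145b (1.03 to 2.64 as deposited) reflect its few reads.

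Balances between arms compare entries within a library and so are free of the scaling. For miR-143, the 3p arm was 92.3 times the 5p arm in *Dnmt1*-WT and 247 times in *Dnmt1*-KO, a 2.68-fold shift toward the main arm (2.60 to 2.77). Put as a share, the 5p arm gave 1.07% of the hairpin's reads in WT (Wilson interval 1.06 to 1.09%) and 0.402% in KO (0.391 to 0.414%). For miR-145a, the 5p arm was 32.6 times the 3p arm in WT and 47.2 times in KO, a 1.45-fold shift toward the main arm (1.39 to 1.51). Its minor arm gave 2.98% (2.92 to 3.04%) of the hairpin's reads in WT and 2.08% (2.01 to 2.15%) in KO. Both hairpins thus shifted in the same sense, although the main arm is 3p in one and 5p in the other.

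The balance of the hairpins moved in opposite senses for the main and the minor arms. miR-145a-5p was 0.155 times miR-143-3p in *Dnmt1*-WT and 0.133 times in *Dnmt1*-KO, a KO/WT ratio of 0.861 (0.856 to 0.867). By the minor arms, miR-145a-3p was 0.439 times miR-143-5p in WT and 0.700 times in KO, a ratio of 1.60 (1.52 to 1.68). With both arms summed, the balance was 0.158 and 0.136, a ratio of 0.859 (0.854 to 0.865), as the main arms dominate the sum. The lower KO/WT ratio thus belonged to miR-145a by the main arms and by the summed arms, and to miR-143 by the minor arms alone.

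How far arm balances differ between these libraries in general was measured on the 62 hairpins with both arms at a mean of at least 100. Of these, 12 (19.4%) shifted at least 2-fold in either direction. The log2 shift had a median of -0.10 and an SD of 0.75, in units of log2 (5p over 3p) in KO minus WT. By size of shift miR-143 was number 6 of the 62 and miR-145a number 31, close to the middle. As measured, the shift of miR-145a was thus no larger than is common among these hairpins. Counting error was not computed for the 62, and it adds to the spread where an arm has few reads. Among the 62, 34 hairpins shifted toward the main arm and 28 toward the minor arm, with a median log2 KO/WT ratio of 0.12 over the main arms and 0.06 over the minor arms. Where both arms reached a mean of 1000, 12 hairpins were left. There the shift of miR-143 was the largest, and the only 1 of at least 2-fold, while miR-145a was number 5. Of these 12, 7 shifted toward the main arm, and the median log2 KO/WT ratio was -0.18 over the main arms and -0.23 over the minor arms.

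A narrower comparison, chosen after the values were seen, kept hairpins whose main arm was at least 30 times the minor arm, as it is in both clustered hairpins. Of these 16 hairpins, 8 shifted toward the main arm and 8 toward the minor arm. The shift of miR-143, 1.42 in log2, was the largest toward the main arm and the only 1 of at least 2-fold in that sense. Toward the minor arm, 3 hairpins shifted at least 2-fold, miR-125a (-1.69), miR-30b (-1.34) and miR-148a (-1.19). Strongly biased hairpins therefore moved both ways in these libraries.

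The hairpins whose balance of 5p over 3p was most reduced in *Dnmt1*-KO were miR-125a, miR-490 and miR-376b, and those where it was most raised were miR-142a, miR-148a and miR-9. The arms of the extreme hairpin in each sense are shown together with miR-490. It was picked by its values, as it shares the pattern of miR-143, a main 3p arm and a minor 5p arm with the lower ratio. That pattern is not particular to miR-490. Among others, miR-671 and miR-455 also had it, with shifts toward the main arm of 1.49 and 1.03 in log2. An arm determines the seed (bases 2 to 8, in capitals) by which a miRNA finds targets, and the arms of a hairpin differ in it. Sequences are mature miRNAs from RefSeq on GRCm38.p6, written 5′ to 3′.
miR-490-5p: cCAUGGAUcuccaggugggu
miR-490-3p: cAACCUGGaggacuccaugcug
miR-125a-5p: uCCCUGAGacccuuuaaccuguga
miR-125a-3p: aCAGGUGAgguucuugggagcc
miR-142a-5p: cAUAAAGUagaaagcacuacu
miR-142a-3p: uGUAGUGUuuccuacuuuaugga

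miR-490 lies within *Chrm2*, which encodes a muscarinic acetylcholine receptor, outside its annotated exons, with its 5p arm at chr6:36421763-36421782 and its 3p arm at chr6:36421800-36421821 on the plus strand. Its minor arm miR-490-5p stood at 1294 in *Dnmt1*-WT and 308.1 in *Dnmt1*-KO (ratio 0.238, 0.210 to 0.270), and its main arm miR-490-3p at 8896 and 6430 (0.723, 0.700 to 0.746). These ratios are close to those of miR-143-5p and miR-143-3p. miR-125a, on the plus strand of chromosome 17 (arms at chr17:17830817-17830840 and chr17:17830855-17830876), had the opposite pattern, with its main arm miR-125a-5p at a ratio of 0.530 (0.525 to 0.535) and its minor arm at 1.71 (1.40 to 2.08). miR-142a, a leukocyte miRNA on the plus strand of chromosome 11 (arms at chr11:87756867-87756887 and chr11:87756903-87756925), was higher in KO by both arms, at 5.01 (4.58 to 5.49) for 5p and 1.82 (1.44 to 2.33) for 3p.

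**Figure D4:**
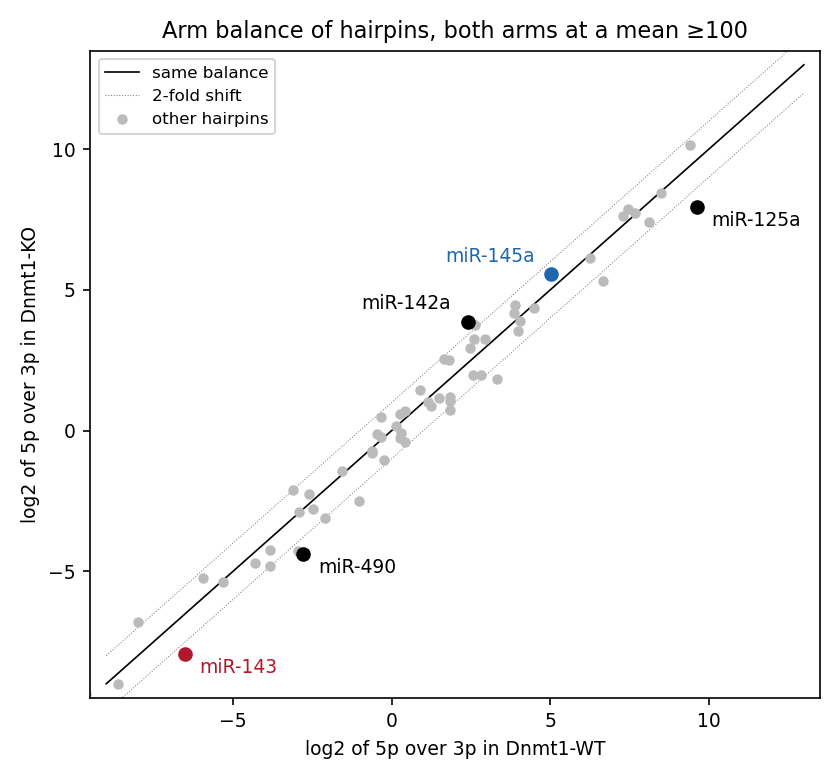
Log2 of the 5p over the 3p arm in *Dnmt1*-WT (horizontal axis) and *Dnmt1*-KO (vertical axis) for the 62 hairpins with both arms at a mean of at least 100; the solid line marks an equal balance and the dotted lines a 2-fold shift. miR-143 (-6.53 and -7.95) lies beyond the dotted line at the 3p end, and miR-145a (5.03 and 5.56) lies within the lines near the 5p end.

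Other miRNAs of the muscle program were read beside the members from a list of miR-1, miR-133, miR-206, miR-208 and miR-499 entries, miRNAs of cardiac, skeletal or smooth muscle of which miR-1 and miR-133 are known SRF targets. Of the 9 miRNAs on this list, miR-133c and miR-206 had no entry on the table used here. Of 11 entries, 5 had a mean of at least 10, and all 5 were lower in *Dnmt1*-KO, 4 of them at least 2-fold, against 47.9% lower and 9.94% at least 2-fold lower over the 543 entries at that level. Their median log2 ratio was -1.24, beside 0.05 over all 543. With equal totals all 5 were still lower, 2 of them at least 2-fold, against 34.1% lower and 5.34% at least 2-fold lower over all 543, and the median was -0.97 beside 0.32. miR-133a-3p, the most abundant, stood at 137241 and 40502 (ratio 0.295, 0.292 to 0.298), a larger reduction than that of either main arm of the cluster. miR-208b-3p, from an intron of a slow myosin heavy chain gene, stood at 992.8 and 301.2 (0.303, 0.266 to 0.345). miR-1a-3p stood at 124.4 and 58.8 (0.473, 0.341 to 0.650), and miR-133a-5p at 101.3 and 42.9 (0.423, 0.289 to 0.611). miR-133b-3p stood at 255.1 and 152.2 (0.597, 0.487 to 0.735), the value nearest to miR-145a-5p among these 5.

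miRNAs known from work on SMC growth and differentiation did not move as 1 group. Of 28 entries of 13 such miRNAs, 24 had a mean of at least 10, of which 15 were lower (8 at least 2-fold) and 9 higher (1 at least 2-fold), with a median log2 ratio of -0.50. Of its 15 entries with a mean of at least 100, 8 were lower (4 at least 2-fold) and 7 higher (1 at least 2-fold), with a median of -0.18. Over all 316 entries with a mean of at least 100, 52.5% were lower, 8.86% were at least 2-fold lower and 6.33% at least 2-fold higher, with a median of -0.03. Over all 543 entries with a mean of at least 10, 47.9% were lower (9.94% at least 2-fold) and 51.6% higher (11.4% at least 2-fold). Under equal totals the list had 14 lower (3 at least 2-fold) and 10 higher (3 at least 2-fold) with a median of -0.23, against 5.34% at least 2-fold lower and 19.5% at least 2-fold higher over all 543. The 7 entries of miR-29a, miR-29b and miR-29c, a family known to act on matrix genes, were singled out after their values were seen. All 7 were lower, with ratios from 0.209 to 0.519, and the interval of the highest, miR-29b-2-5p (0.235 to 1.09), includes 1. miR-181b-5p (0.458, 0.448 to 0.467), miR-29a-3p (0.498, 0.469 to 0.530), miR-24-3p (0.635, 0.627 to 0.644), miR-24-2-5p (0.656, 0.612 to 0.703) and miR-100-5p (0.804, 0.778 to 0.830) were lower. miR-21a-5p (2.01, 1.95 to 2.07), miR-221-3p (1.75, 1.63 to 1.88), miR-146a-5p (1.26, 1.22 to 1.29) and miR-26a-5p (1.16, 1.16 to 1.17) were higher, and miR-204-5p was at 1.04 (0.976 to 1.10). miR-21 and miR-221 are known to favour SMC growth, the opposite role to that of miR-143 and miR-145. The list was not split by role, and 15 of its 24 entries were lower, so they do not stand for the list.

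The entries whose KO/WT ratio was nearest to the main arms were found among the 135 other mature entries with a mean of at least 1000, by the difference in log2 ratio over these 2 libraries. Nearest to miR-143-3p were miR-7a-5p (0.686), miR-181a-5p (0.705) and let-7d-5p (0.705). Nearest to miR-145a-5p were miR-93-5p (0.601), miR-30b-5p (0.601) and miR-181d-5p (0.592). With only 2 libraries, likeness of a single ratio is weak, and many entries lie close by.

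Leukocyte, red cell, endothelial and mesenchymal markers were higher in the library in which the cluster was lower, while epithelial and neural markers went both ways. These counts stand beside 51.6% of all 543 entries with a mean of at least 10 that were higher. All 6 leukocyte entries with a mean of at least 10 (of 7 listed for miR-142a, miR-150, miR-155 and miR-223) were higher in *Dnmt1*-KO, and their summed level was 1702 in WT and 4936 in KO. All 5 red cell entries (miR-144, miR-451a, miR-486a and miR-486b) were higher, with a sum of 12823 and 47355, nearly all of it miR-486a-5p (3.71, 3.64 to 3.79), which muscle also expresses. Both endothelial miR-126a arms were higher, miR-126a-3p at 1.27 (1.23 to 1.32) and miR-126a-5p at 1.62 (1.55 to 1.68), and the sum over the endothelial list was 10081 and 14283. Of 13 epithelial entries 9 were higher and 4 lower, with a sum of 14645 and 18346, led by miR-192-5p (1.79, 1.73 to 1.86), while miR-215-5p (0.977, 0.945 to 1.01) and miR-194-5p (0.958, 0.892 to 1.03) had intervals that include 1. Of 7 neural entries 2 were higher and 5 lower, with a sum of 5223 and 5021, where miR-9-5p was at 1.09 (1.02 to 1.17) and miR-128-3p at 0.965 (0.911 to 1.02). No miRNA of these lists lacked an entry, and among their entries only 1 neural entry was listed at 0 in KO and none in WT. With equal totals, which made 65.9% of all 543 entries higher, all 13 epithelial entries and 4 of the 7 neural entries were higher, and the counts of higher leukocyte, red cell, endothelial and mesenchymal entries did not change. The part of these cell types in the lower values of the cluster was not tested.

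The mesenchymal list holds miRNAs of fibroblasts, cells known to express miR-143 and miR-145 too. All 5 of its entries were higher in *Dnmt1*-KO, with a sum of 24632 and 29361. miR-199b-3p was at 1.13 (1.11 to 1.15), miR-199a-5p at 1.18 (1.12 to 1.24) and miR-214-3p at 2.78 (2.57 to 3.0). The intervals of miR-199b-5p (1.07, 0.944 to 1.21) and miR-214-5p (1.09, 0.840 to 1.41) include 1.

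**Figure D5:**
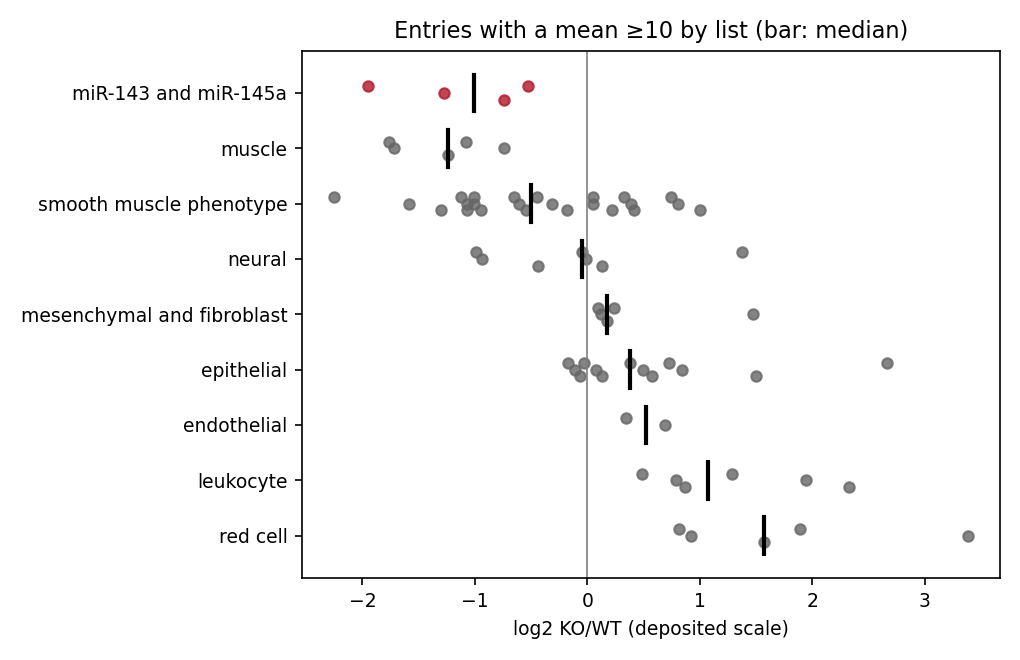
Log2 KO/WT on the deposited scale (horizontal axis) of each entry with a mean of at least 10, by list (rows), with the black bar at the list's median; 1 library per genotype. The 4 entries of miR-143 and miR-145a (red, median -1.01) and the 5 muscle entries (median -1.24) lie left of 0, and the leukocyte (median 1.08) and red cell (median 1.57) entries lie right of it.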

How the data were processed

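Small RNA libraries (TruSeq Small RNA kit) of 1 *Dnmt1*-WT and 1 *Dnmt1*-KO sample were sequenced and processed by a commercial provider against GRCm38 (mm10), with Bowtie named in the submitters' processing notes. The release of the miRNA database, the handling of multi-mapped reads and the scaling are not given in the sources used here. The authors deposited 1 scaled read number per entry and library, plus a column with their own fold change, which was not used. The factor per library was found from the values: steps of 1.00291 (WT) and 0.997185 (KO) made 89.1% and 91.1% of the values from 20 to 300 whole within 0.07 reads, against a median of 10.5% for other steps between 0.98 and 1.02. Dividing by them gave 5725246 and 4768099 implied reads, a depth at which a count of 0 allows a share of up to 5.24e-05% in WT and 6.29e-05% in KO.

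Ratios used no pseudocount and the deposited scale. Ratio intervals are exact (Clopper-Pearson) binomial intervals of the KO share of implied reads, shares carry Wilson intervals, and intervals of balances were computed on the log scale from the 4 read numbers. The interval and step functions were tested on simulated data. Alternatives were other scalings, pseudocounts, minimum means, denominators and choices of arm. Named entries were the 5 members, muscle list entries with a mean of at least 10, other list entries with a mean of at least 1000, rank neighbours of the main arms, the 3 entries nearest to each in ratio, and the 3 hairpins with the largest arm shift in each direction. Outside this rule, miR-30b, miR-671, miR-455, miR-199b-5p, miR-214-5p and the miR-29 entries were named after their values were seen. The entries described, the lists and the comparisons were chosen with earlier results of these data known. Python 3.11.15, numpy 2.4.6 and scipy 1.17.1 were used.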

Additional observations from a re-analysis of the deposited data

How the results depend on the processing

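No paired analysis was possible because each genotype had 1 library. All 4 clustered entries stayed below a KO/WT ratio of 1 under the 3 other scalings and pseudocounts of 1 and 10, and miR-145b stayed above 1. Equal library totals gave 0.838 for miR-143-3p, 0.722 for miR-145a-5p and 0.816 for the sum of the 5, equal totals without the 5 members gave 0.759, 0.653 and 0.739, and setting the median of entries with a mean of at least 100 to a ratio of 1 gave 0.711, 0.612 and 0.692. Without miR-143-3p in sum and total, the other 4 members took 7.64% of WT and 4.91% of KO. The KO/WT ratio of miR-145a-5p over miR-143-3p, 0.861, reversed to 1.60 with the minor arms, and the cause was not tested. The share of hairpins shifted at least 2-fold was 8.33% at a mean of at least 1000, where only 12 are left. Entries at least 2-fold higher and lower numbered 306 and 265 with no minimum, 62 and 54 at a mean of 10, 20 and 28 at 100, and 6 and 10 at 1000, by construction of fewer entries. With equal totals they numbered 361 and 219 with no minimum and, in an alternative chosen after seeing the data, 106 and 29 at a mean of 10. The median of the muscle list was -1.72 over its 3 entries that reach a mean of 100. Depth limits only miR-145b among the members.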
